A study of Sus scrofa with 14 samples.

Results

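The solute carriers, the SLC and SLCO genes, encode membrane proteins that move sugars, amino acids, ions, metals, vitamins, nucleosides and organic anions across cell and organelle membranes. They were taken as every probe set (a group of short probes for 1 transcript) whose single gene symbol started with SLC and a digit, or with SLCO. Where a gene had several probe sets, the probe set with the highest mean signal stood for it. This gave 184 probe sets for 123 genes in 38 families, out of 6765 genes named on the array. For 41 of the genes there was more than 1 probe set. A total of 102 genes were bright enough to test and 21 were not. The name rule also took in 3 genes that are not carriers: SLC2A4RG, a regulator of SLC2A4, and the scaffold proteins SLC9A3R1 and SLC9A3R2.

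Endometrium lines the uterus, and its RNA was taken here from 14 crossbred cyclic gilts (young female pigs) aged 8 to 10 months, with 1 array per gilt. Estrogen, or corn oil in controls, was given at the onset of the second estrus and again 24 hours later. Collection fell on day 13 or day 15 of pseudopregnancy and followed a saline flush of the uterus. At day 13 each treatment had 4 gilts, and at day 15 each had 3. All gilts were made pseudopregnant, so no group held conceptuses, and the labels do not name the estrogen or its dose. Replicates were labelled as biological, and the comparisons asked how estrogen given early, called endocrine disruption by the submitters, and the day of pseudopregnancy were related to endometrial expression.

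In the pregnant pig the conceptus lives for weeks on histotroph, the fluid that endometrial glands and surface epithelium release into the uterine lumen. Carriers at the epithelial membranes pass glucose, amino acids, phosphate, zinc, vitamins and ions into or out of that fluid, while SLC25 carriers link mitochondria to the cytosol and SLC35 carriers feed nucleotide sugars to the secretory pathway. Many carriers run on the sodium gradient built by the sodium pump.

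Values are log2(signal + 16), called the log2 level below, and a difference of 1 is a 2-fold change on that scale. The level of a gene was compared only between arrays; levels were set across genes only to choose probe sets and names and to describe medians over many genes. Epithelial markers were bright on every array: EPCAM lay between 13.38 and 14.08. The stromal marker DCN lay between 13.00 and 13.49, so the sampled tissue held epithelium and stroma. Bulk RNA cannot tell fewer cells of a type from less RNA per cell. Among the 14 arrays 3 stood apart: replicate 1 of the day 13 controls, replicate 3 of the day 15 controls and replicate 2 of the day 15 estrogen gilts. Their median correlation with all others was 0.860 to 0.885, while that of the remaining 11 was 0.927 to 0.952. Several results that rest on these arrays are given with and without them, but SDs of single genes use all 14 arrays. An RNA quality value, the standardised 3' minus 5' difference of control genes, was 1.88 and 1.44 on estrogen day 15 replicates 1 and 3. It lay between -1.32 and 0.49 on the other 12 arrays. A higher value means more signal at the 3' end relative to the 5' end, and does not mean better RNA.

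No carrier passed the test in any of the 7 comparisons (limma, Benjamini-Hochberg adjusted p under 0.05 over 16754 probe sets). Among all probe sets the same test called 0.00597% (1 probe set) in the day comparison averaged over both treatments, and 0% in each of the other comparisons. At an unadjusted p under 0.05, the estrogen comparison took 5 of the 102 tested carriers at day 13 (2.89% of all probe sets), 4 at day 15 (3.83%) and 7 averaged over the days (3.22%). The comparison of day 15 with day 13 took 6 carriers in control gilts (3.92% of all probe sets), 7 in estrogen gilts (8.61%) and 8 averaged over the treatments (8.56%). For the interaction, in which the estrogen difference at day 13 is taken from that at day 15, it took 7 (3.55%). As shares of the 102 carriers these 7 counts were 4.90%, 3.92%, 6.86%, 5.88%, 6.86%, 7.84% and 6.86%, which for the day comparisons of estrogen gilts and of both treatments is under the background.

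Groups that did not overlap were also counted. With estrogen, 4 carriers lay wholly above and 1 wholly below the controls at day 13 (background 2.72%). At day 15, 4 lay above and 4 below (background 7.31%). From day 13 to day 15, 1 carrier lay above and 1 below in control gilts (3.52%), and 9 above and 4 below in estrogen gilts (14.5%). The median log2 difference over the 102 carriers was 0.07 for estrogen and 0.07 for day, each averaged, beside 0.01 and -0.00 over all probe sets.

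Spread over the 14 arrays was wider among the carriers than among all probe sets, which is given as a description with no test. This spread includes group differences and the 3 arrays that stood apart, and was not computed without them. The SD over the 14 arrays was above 1 for 12 of 102 carriers (11.8%), beside 2.90% of all probe sets and 3.23% of the 5785 named genes taken with 1 probe set each. The median SD was 0.42 for carriers and 0.33 for the named genes, and the median level was 8.88 and 9.33; the part of level in the spread was not tested. The 12 were SLC34A2, SLC27A6, SLC36A2, SLC39A2, SLC4A4, SLCO1A2, SLC29A1, SLC2A1, SLC7A9, SLC23A1, SLC5A1 and SLC15A1, of which the last 2 were named after their values were seen.

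**Figure D1:**
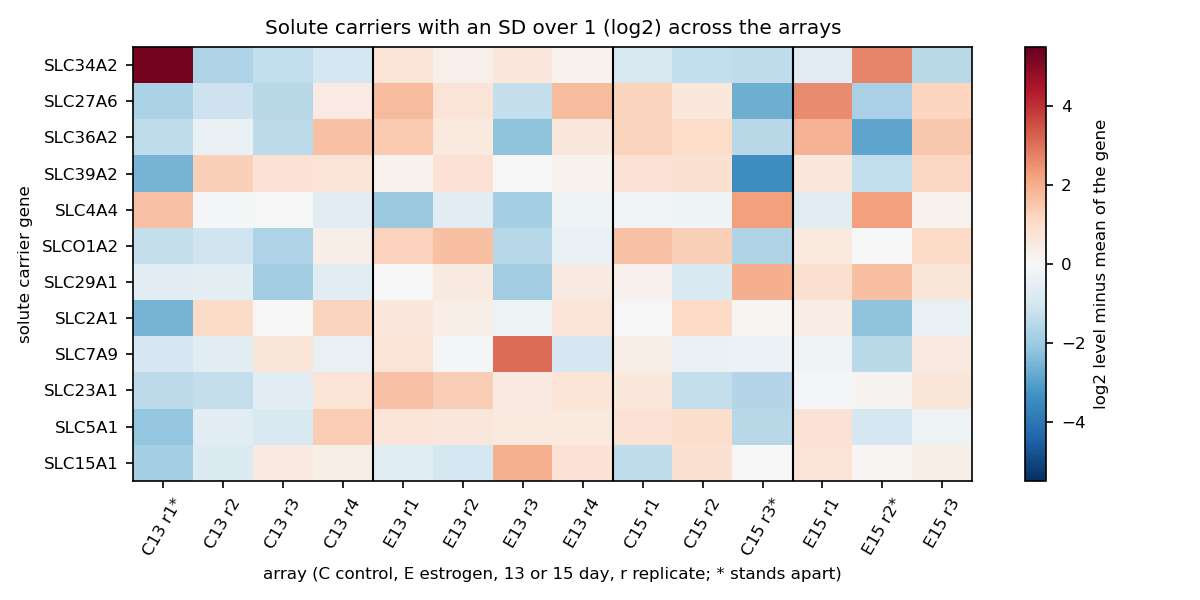
Log2 level minus the mean of the gene (colour, red above and blue below) for the 12 carriers with an SD above 1, in rows, on the 14 arrays, in columns grouped by treatment and day; stars mark the 3 arrays that stood apart. SLC34A2 was high on control day 13 replicate 1 (13.09) while SLC39A2 was low there (10.33), and SLC27A6, SLC36A2 and SLCO1A2 were low together on several arrays of different groups.

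SLC34A2 is the sodium-dependent phosphate carrier of epithelial surfaces. In control gilts at day 13 its log2 levels were 13.09, 6.11, 6.46 and 6.85 in replicates 1 to 4, and in estrogen gilts 8.59, 8.10, 8.42 and 8.02. At day 15 the control gilts had 6.93, 6.45 and 6.45, and the estrogen gilts 7.25, 10.50 and 6.36. The 4 estrogen gilts at day 13 lay close together and above every other array except control day 13 replicate 1 and estrogen day 15 replicate 2, both of which stood apart as whole arrays. With all arrays the estrogen difference at day 13 was 0.15 ± 1.25 (SE), with an adjusted p of 1.00 in limma. Without the 3 arrays it was 1.81 ± 0.27, a larger value that still missed the threshold (limma adjusted p = 0.203), with the remaining 3 control and 4 estrogen gilts not overlapping.

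The day comparison of SLC34A2 in estrogen gilts also turned on these arrays. It was -0.25 ± 1.36 (SE) with all arrays (limma adjusted p = 0.972). Leaving out the 3 arrays, it was -1.48 ± 0.31 with a limma adjusted p of 0.0409, so SLC34A2 fell between the days there, with 2 estrogen gilts left at day 15. Over all alternatives this adjusted p ran from 0.0409 to 0.992. The fit without the 3 arrays called 1 of 102 carriers and 1.32% of all probe sets. Its 2 estrogen gilts at day 15, replicates 1 and 3, had the highest RNA quality values of all arrays, the largest 3' excess (1.88 and 1.44). In that comparison day and RNA quality cannot be told apart. With RNA quality added as a covariate and the 3 arrays still left out, the difference was -2.004 ± 0.69 (limma adjusted p = 0.626). With that covariate on all arrays it was 0.62 ± 1.58, the opposite sign (limma adjusted p = 0.874). Its interaction was 1.27 ± 1.92 with all arrays and -1.70 ± 0.45 without the 3 (limma adjusted p = 0.990 and 0.756).

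**Figure D2:**
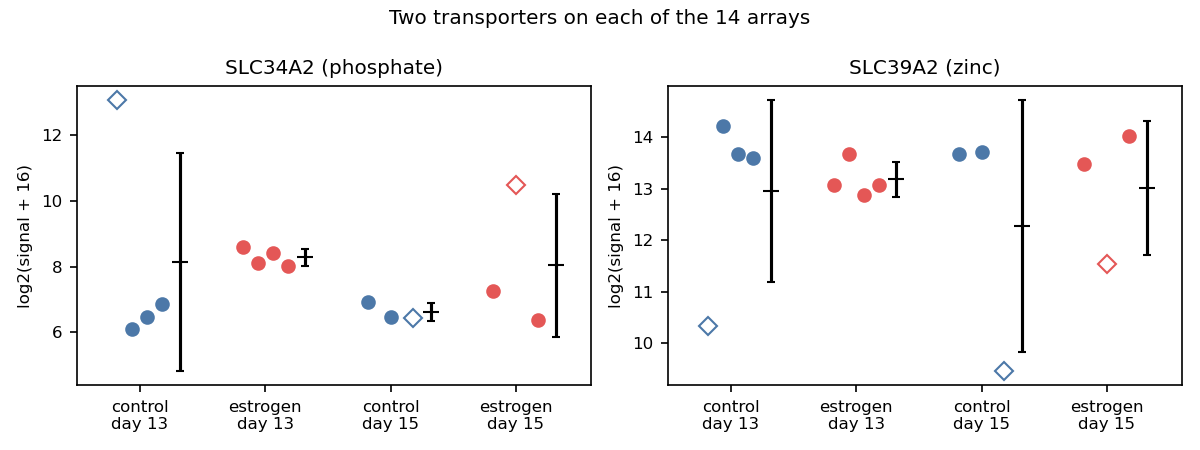
Log2 level of SLC34A2 (left) and SLC39A2 (right) on each array, by group; points are gilts, open diamonds are the 3 arrays that stood apart, and the bars beside them give the mean ± SD of each group (n = 4 at day 13, n = 3 at day 15). For SLC34A2 the 4 estrogen gilts at day 13 sit between 8.02 and 8.59 and 3 of the 4 controls between 6.11 and 6.85, while for SLC39A2 the open diamonds lie below all other arrays.

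Zinc carriers of the SLC39 family bring zinc into the cytosol and those of the SLC30 family take it out. SLC39A2 had log2 levels of 10.33, 14.21, 13.68 and 13.61 in control gilts at day 13 and 13.08, 13.68, 12.88 and 13.07 in estrogen gilts. At day 15 the levels were 13.68, 13.71 and 9.45 in controls and 13.47, 11.55 and 14.02 with estrogen. The low values 10.33, 9.45 and 11.55 are those of the 3 arrays apart, and the other 11 arrays lay between 12.88 and 14.21. The estrogen difference averaged over the days was 0.48 ± 0.73 (SE) with all arrays and -0.30 ± 0.18 without the 3, so its sign turned and neither passed the test (limma adjusted p = 1.00 and 0.654). Metallothioneins, which are zinc-binding proteins, were measured by MT1A and MT3, and their mean level was 8.35 to 10.43 on those 3 arrays but 10.58 to 12.77 on the remaining 11. Their part in the SLC39A2 values was not tested.

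The other zinc carriers varied far less. SLC39A7, the zinc channel of the endoplasmic reticulum, lay between 10.40 and 11.12, and at day 15 the estrogen gilts (10.89, 11.05 and 10.78) were all above those of day 13 (10.65, 10.46, 10.44 and 10.73). Its difference between the days in estrogen gilts was 0.34 ± 0.18 (SE). At day 15 all 6 SLC39 carriers had a positive estrogen difference (median 0.19, range 0.09 to 0.73), of which SLC39A2 turned negative without control day 15 replicate 3. A positive difference was also found in 62.7% of the 102 tested carriers and 54.3% of all probe sets. The vesicle zinc carrier SLC30A3 was 10.30, 10.20 and 10.35 in control gilts at day 15 and 10.07, 9.13 and 9.73 with estrogen, without overlap (-0.64 ± 0.32, SE). SLC39A7 and SLC30A3 were named after their values were seen.

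Among iron and other metal carriers, SLC11A1 had the lowest p of all carriers. It is the divalent metal carrier of the phagosome in macrophages and other phagocytes. Its levels at day 13 were 7.02, 6.49, 6.41 and 5.93 in control and 6.01, 6.47, 6.58 and 6.32 in estrogen gilts. At day 15 they were 6.91, 7.27 and 7.07 in control and 7.48, 7.09 and 7.63 in estrogen gilts. Every estrogen gilt at day 15 lay above every estrogen gilt at day 13, and among controls only day 13 replicate 1 reached the day 15 range. Day 15 minus day 13 was 0.63 ± 0.26 (SE) in control gilts, 1.06 ± 0.26 in estrogen gilts and 0.84 ± 0.19 averaged. No fold is given against the dim day 13 levels. The averaged difference had an unadjusted p of 0.000501 and a limma adjusted p of 0.189.

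The call for SLC11A1 depended on the arrays used. With those 3 arrays left out, the averaged day difference was 1.02 ± 0.19 (SE) and passed (limma adjusted p = 0.0294), and without control day 13 replicate 1 alone it was 0.93 ± 0.17 (limma adjusted p = 0.0302). Down-weighting divergent arrays gave 0.99 ± 0.17 (limma adjusted p = 0.0144), so SLC11A1 rose with day in these 3 fits, from dim day 13 levels. Leaving out control day 13 replicate 1 removed the highest day 13 level of the gene. Over all alternatives the adjusted p ran from 0.0144 to 0.547. With the RNA quality covariate the limma adjusted p was 0.122 on all arrays and 0.360 without the 3. Macrophage markers moved with it. The mean of the 4 tested markers (CD163, MRC1, AIF1 and TYROBP, of 6 listed) lay between 7.13 and 8.18 on day 13 arrays and between 8.22 and 9.55 on day 15 arrays. All 4 had a positive averaged day difference, with a median of 1.28, and 1 of them was the only probe set called in that comparison. The 5 tested lymphocyte markers were all positive as well (median 0.57). Without the 3 arrays (0.985% of all probe sets called), all 4 macrophage markers rose with day, by 1.00 (CD163) to 2.23 (MRC1). With the RNA quality covariate added, that fit called 0.0239% of all probe sets, and the macrophage markers were not followed there. Their part in the SLC11A1 values was not tested.

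**Figure D3:**
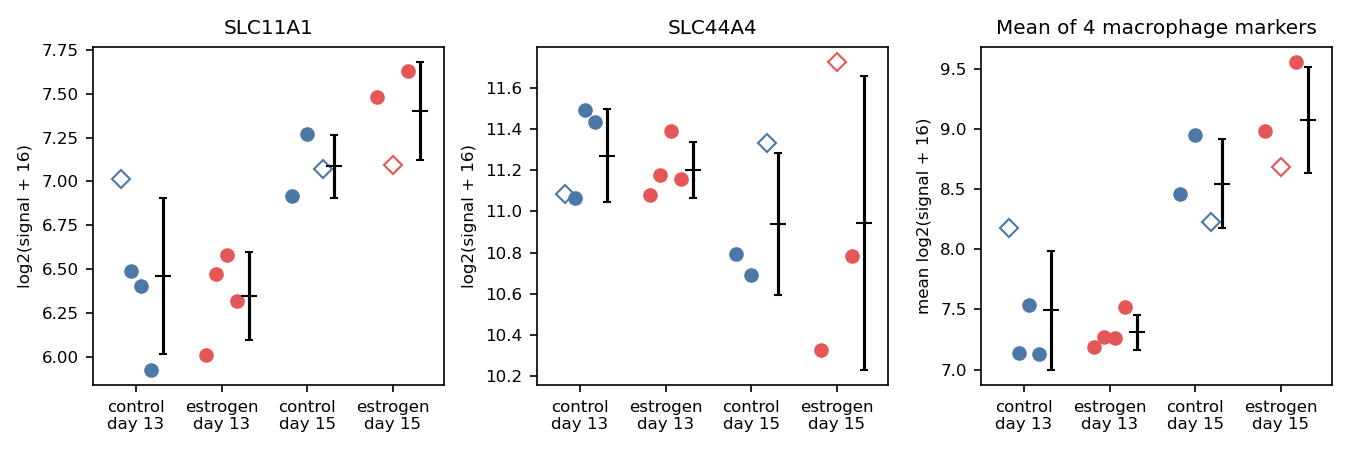
Log2 level of SLC11A1 (left) and SLC44A4 (middle), and the mean log2 level of 4 macrophage markers (right), on each array by group; open diamonds are the 3 arrays that stood apart and bars give the mean ± SD (n = 4 at day 13, n = 3 at day 15). SLC11A1 and the macrophage mean are higher at day 15, and SLC44A4 is lower at day 15 on the arrays other than the diamonds.

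SLC11A2, the main proton-coupled iron importer, was 9.12, 11.01, 10.40 and 10.56 in control and 9.07, 9.35, 10.19 and 9.99 in estrogen gilts at day 13, with overlap through replicate 1. On day 15 the levels were 9.73, 10.72 and 11.13 in control and 9.78, 9.62 and 9.86 in estrogen gilts. The averaged estrogen difference was -0.70 ± 0.30 (SE), with a limma adjusted p of 1.00. Its second tested probe set gave -0.43. SLC11A2 was named after its values were seen. The copper importer SLC31A1 differed by 0.01 ± 0.28 with estrogen and by 0.12 ± 0.28 with day.

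SLC44A4, a carrier of choline and thiamine pyrophosphate on epithelia, was 11.08, 11.07, 11.49 and 11.43 in control and 11.08, 11.18, 11.39 and 11.16 in estrogen gilts at day 13. The day 15 levels were 10.79, 10.69 and 11.33 in control and 10.33, 11.72 and 10.78 in estrogen gilts. The values 11.33 and 11.72 are from arrays that stood apart, and the other 4 gilts at day 15 lay below all 8 at day 13. With all arrays the averaged day difference was -0.29 ± 0.19 (SE; limma adjusted p = 0.667). Leaving out the 3 arrays, SLC44A4 fell with day, by -0.62 ± 0.13 (limma adjusted p = 0.0465), in a fit that called 2 of 102 carriers and 0.985% of all probe sets. With the RNA quality covariate as well, the limma adjusted p was 0.401, and over all alternatives it ran from 0.0465 to 0.846.

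Amino acid carriers numbered 16, of which 13 were tested. With estrogen 8 had a positive and 5 a negative averaged difference (median 0.05), and with day 8 and 5 (median 0.10). SLC38A1, a sodium-coupled importer of glutamine and other neutral amino acids, was 11.52, 12.33, 11.95 and 11.84 in control gilts at day 13 and 12.62, 12.82, 12.36 and 12.59 with estrogen, without overlap. By day 15 levels were 11.90, 11.07 and 10.48 in control and 12.24, 11.001 and 12.39 in estrogen gilts. The averaged estrogen difference was 0.71 ± 0.25 (SE) and the averaged day difference -0.74 ± 0.25, with limma adjusted p of 1.00 and 0.422. All 3 of its probe sets had the same signs: 0.71, 0.56 and 0.34 for estrogen, and -0.74, -0.78 and -0.81 for day.

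SLC3A1 and SLC7A9 form the cystine and dibasic amino acid exchanger of the kidney and gut. SLC3A1 was 9.33, 9.28, 8.99 and 8.98 in estrogen gilts at day 13 and 8.23, 8.69 and 8.51 at day 15, without overlap. Control gilts had 8.87, 9.08, 8.62 and 8.80 at day 13 and 9.26, 8.83 and 9.08 at day 15. The difference between the days was -0.67 ± 0.18 (SE) in estrogen gilts and 0.21 ± 0.18 in controls, and the difference of the 2 was -0.88 ± 0.26 (limma adjusted p = 0.301, 0.966 and 0.990). With down-weighted arrays the first was -0.79 ± 0.18 and passed (limma adjusted p = 0.0486, with a range of 0.0486 to 0.764 over all alternatives), in a fit that called 2 of 102 carriers and 1.00% of all probe sets. Another probe set of SLC3A1 gave -0.25 in estrogen gilts and 1.47 in controls, so the probe sets disagreed in size. SLC7A9 was 10.13 in estrogen day 13 replicate 3 and between 5.55 and 7.75 on the other 13 arrays.

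Other amino acid carriers showed smaller differences. SLC7A4, a relative of the cationic amino acid carriers, differed with estrogen by -0.50 ± 0.23 (SE) at day 13 and by 0.34 ± 0.27 at day 15. SLC7A1, the arginine and lysine importer, lay between 9.96 and 11.15 and differed by -0.10 ± 0.19 with estrogen and 0.17 ± 0.19 with day. The glutamate carrier SLC1A1 ranged from 7.76 to 11.16, with its lowest value on control day 13 replicate 1. SLC38A10 was 9.56, 9.60 and 9.48 in estrogen gilts at day 15, above all 4 estrogen gilts at day 13 (9.21, 8.95, 8.86 and 9.11) and all 3 controls at day 15 (9.20, 8.82 and 9.45). Its difference between the days in estrogen gilts was 0.51 ± 0.21 (limma adjusted p = 0.528).

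SLC36A2, a proton-coupled carrier of glycine and proline, SLC27A6, a fatty acid carrier, and SLCO1A2, an organic anion carrier, had large spreads that crossed the groups. SLC27A6 was 6.24, 6.85, 6.46 and 8.43 in control and 9.75, 8.72, 6.69 and 9.71 in estrogen gilts at day 13. Levels at day 15 were 9.22, 8.59 and 5.29 in control and 10.60, 6.19 and 9.16 in estrogen gilts. On control day 13 replicates 1 and 3, estrogen day 13 replicate 3 and control day 15 replicate 3, SLC36A2 was 5.92, 5.90, 5.10 and 5.81, and SLCO1A2 was 5.74, 5.38, 5.48 and 5.39. These are the 4 lowest arrays of SLCO1A2, and SLC36A2 was as low on 1 more array, estrogen day 15 replicate 2 (4.45), where SLCO1A2 was 7.07. The first 4 of these arrays came from 3 of the 4 groups, and with the fifth all 4 groups and all 3 arrays apart are included. The averaged estrogen differences were 1.34 ± 0.78 (SE) for SLC27A6, 0.21 ± 0.84 for SLC36A2 and 0.64 ± 0.59 for SLCO1A2.

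The families SLC2, SLC5, SLC45 and SLC50, grouped here as sugar carriers, held 15 genes, 13 of them tested; by family this count includes SLC5A5 and SLC5A6, which carry iodide and vitamins. With estrogen 11 of the 13 had a positive averaged difference (median 0.12), beside 62.7% of the 102 tested carriers and 51.4% of all probe sets. This count was not made without the 3 arrays that stood apart. SLC2A1, the basal glucose carrier, was 9.61, 13.22, 12.11 and 13.39 in control and 12.74, 12.52, 11.86 and 12.88 in estrogen gilts at day 13. In the day 15 groups levels were 12.12, 13.23 and 12.21 in control and 12.57, 9.93 and 11.72 in estrogen gilts. Its 2 lowest values, 9.61 and 9.93, came from arrays that stood apart. The sodium-coupled glucose carrier SLC5A1 was 7.55, 8.15 and 8.72 on the arrays apart, against 8.83 to 11.07 elsewhere.

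SLC2A3, the high-affinity glucose carrier, separated by day in estrogen gilts but not in controls. It was 8.36, 8.75, 7.89 and 8.46 in estrogen gilts at day 13 and 9.92, 8.86 and 9.64 at day 15, without overlap, and 9.79, 8.24, 8.11 and 7.55 in controls at day 13 against 9.47, 7.90 and 10.16 at day 15. The averaged day difference was 0.93 ± 0.38 (SE; limma adjusted p = 0.519) and 1.07 ± 0.27 without the 3 arrays (limma adjusted p = 0.0978). SLC50A1, a sugar exporter, was 9.40, 9.53, 9.49 and 9.39 in control and 9.82, 9.97, 9.89 and 9.80 in estrogen gilts at day 13, without overlap. That difference was 0.42 ± 0.14, and at day 15 it was 0.12 ± 0.17 (limma adjusted p = 1.00 and 0.988). The multivitamin carrier SLC5A6 differed by 0.04 ± 0.33 with estrogen.

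SLC25 was the family with the most members, with 21 genes, 20 of them tested. Most encode carriers of the inner mitochondrial membrane or of peroxisomes. With estrogen 7 had a positive and 13 a negative averaged difference (median -0.04), and with day 11 and 9 (median 0.02). SLC25A1, which exports citrate from mitochondria for lipid synthesis, was 10.68, 10.06, 10.05 and 10.70 in control and 11.66, 11.30, 10.85 and 10.95 in estrogen gilts at day 13, without overlap. On day 15 the levels were 10.91, 10.43 and 10.75 in control and 11.17, 10.71 and 11.06 in estrogen gilts, with overlap. The difference was 0.82 ± 0.22 (SE) at day 13, or 1.76-fold, and 0.28 ± 0.26 at day 15 (limma adjusted p = 1.00 and 0.985). The day 13 value was 0.92 ± 0.23 without the 3 arrays (limma adjusted p = 0.410).

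SLC25A21, which carries oxoadipate and related acids of lysine breakdown, was 9.61, 9.66, 9.76 and 9.61 in estrogen gilts at day 13 and 9.10, 8.88 and 8.82 at day 15. Control gilts had 8.79, 9.73, 9.45 and 9.44 at day 13 and 9.59, 9.33 and 9.54 at day 15. The 3 estrogen gilts at day 15 lay below all other arrays but control day 13 replicate 1. The difference between the days was -0.73 ± 0.20 (SE) in estrogen gilts and 0.13 ± 0.20 in controls, and the difference of the 2 was -0.86 ± 0.28 (limma adjusted p = 0.301, 0.966 and 0.990). With those 3 arrays left out, the first was -0.70 ± 0.16 (limma adjusted p = 0.0559).

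SLC25A24, an ATP-magnesium and phosphate exchanger, was 9.89, 9.25, 9.74 and 10.09 in control gilts at day 13 and 10.07, 10.65 and 10.91 at day 15, a difference of 0.80 ± 0.25 (SE; limma adjusted p = 0.966). The ADP and ATP exchangers SLC25A5 and SLC25A6 ranged from 11.28 to 12.76 and from 13.24 to 14.07, and the phosphate carrier SLC25A3 from 12.97 to 13.49. Their averaged estrogen differences were -0.03 ± 0.18, -0.01 ± 0.14 and -0.06 ± 0.10. In control gilts SLC25A5 differed between the days by 0.57 ± 0.26 (SE; limma adjusted p = 0.966), and by 0.26 ± 0.24 without the 3 arrays. SLC25A33, a pyrimidine nucleotide carrier, differed by -0.46 ± 0.31 with estrogen and was lowest on control day 13 replicate 1 (10.24).

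Among carriers of vitamins and peptides, SLC23A1, the sodium-dependent vitamin C carrier, was 4.98, 5.09, 5.80 and 7.15 in control and 8.00, 7.78, 6.92 and 7.16 in estrogen gilts at day 13. The day 15 levels were 6.997, 5.10 and 4.79 in control and 6.35, 6.56 and 7.07 in estrogen gilts. The groups overlapped on both days, through control day 13 replicate 4 and control day 15 replicate 1. Both control means, 5.75 and 5.63, lay under 6.35, the mean level required for testing, so SLC23A1 was tested only because of its estrogen groups (7.46 and 6.66). The fitted averaged difference was 1.37 ± 0.40 (SE), with a limma adjusted p of 1.00; no fold is given against the dim control levels. SLC52A2, a riboflavin carrier, was lower with estrogen on both days without overlap: 8.30 to 8.45 against 8.53 to 9.09 at day 13, and 8.31 to 8.63 against 8.74 to 9.06 at day 15. Its averaged difference was -0.37 ± 0.12 (limma adjusted p = 1.00). The peptide carrier SLC15A2, named after its values were seen, was 7.13 on control day 15 replicate 3 and 9.71 to 10.98 elsewhere.

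SLCO3A1, an organic anion carrier that takes prostaglandins and thyroid hormone, was 9.14, 9.87, 10.15 and 9.68 in control and 10.46, 10.56, 10.56 and 10.51 in estrogen gilts at day 13, without overlap. By day 15 levels were 10.11, 9.57 and 8.44 in control and 10.03, 10.25 and 10.03 in estrogen gilts. The estrogen difference was 0.81 ± 0.29 (SE) at day 13 and 0.73 ± 0.34 at day 15, and 0.77 ± 0.22 averaged, or 1.71-fold (limma adjusted p = 1.00, 0.985 and 1.00). The day 15 value rested on control replicate 3: without the 3 arrays it was 0.19 ± 0.21. The 4 probe sets of the gene gave averaged differences of 0.77, 0.62, 0.44 and 0.50. SLCO2B1, another organic anion carrier, differed between the days in estrogen gilts by 0.60 ± 0.23 without overlap, and SLC22A5, the carnitine importer, by 0.15 ± 0.23.

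Nucleoside carriers supply bases to the cell, and SLC35 carriers bring nucleotide sugars and sulfate donors into the Golgi. SLC29A1, an equilibrative nucleoside carrier, was 6.14, 6.30, 4.86 and 6.19 in control and 6.78, 7.26, 4.85 and 7.29 in estrogen gilts at day 13. Levels at day 15 were 7.0003, 5.94 and 8.77 in control and 7.65, 8.43 and 7.44 in estrogen gilts. The averaged day difference was 1.33 ± 0.47 (SE, limma adjusted p = 0.455), and 0.84 ± 0.47 without the 3 arrays, 2 of which gave the highest values, 8.77 and 8.43. The control gilts at day 13 all lay under 6.35, the mean level required for testing. SLC29A1 was therefore tested only because of its other groups. SLC28A3, a concentrative nucleoside carrier, ranged from 10.52 to 13.41 and differed by -0.38 ± 0.38 with day. Of the 10 SLC35 genes, SLC35B2, the sulfate donor carrier, was 9.45, 9.33 and 9.21 in estrogen gilts at day 15 against 8.53 to 8.97 at day 13 and 8.76 to 9.04 in controls at day 15. Its difference between the days in estrogen gilts was 0.54 ± 0.20 (limma adjusted p = 0.471). SLC35F6 was 9.97 on control day 15 replicate 3 and 7.60 to 9.18 elsewhere. The 3 tested probe sets of SLC35F5 disagreed in sign for estrogen (0.09, -0.19 and -0.18).

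Carriers of ions set pH and bicarbonate in the uterine fluid. SLC4A4, the sodium bicarbonate cotransporter, was 8.60, 6.89, 7.02 and 6.36 in control and 4.97, 6.41, 5.18 and 6.76 in estrogen gilts at day 13. In the day 15 groups levels were 6.87, 6.77 and 9.24 in control and 6.44, 9.26 and 7.20 in estrogen gilts. The 3 arrays apart held its 3 highest values. Its difference between the days in estrogen gilts was 1.80 ± 0.77 (SE) with all arrays and 0.99 ± 0.48 without them (limma adjusted p = 0.546 and 0.327). The mean of the estrogen gilts at day 13 lay under 6.35, the mean level required for testing, so both differences start from a dim group. SLC9A4, a sodium and proton exchanger, was 6.54, 6.62, 6.01 and 6.72 in control gilts at day 13 and 6.80, 7.68 and 7.94 at day 15, without overlap, a difference of 1.00 ± 0.37 (limma adjusted p = 0.966). In estrogen gilts the difference was -0.29 ± 0.37. The scaffold SLC9A3R1, which holds such exchangers at the apical membrane, lay between 11.49 and 12.23.

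**Figure D4:**
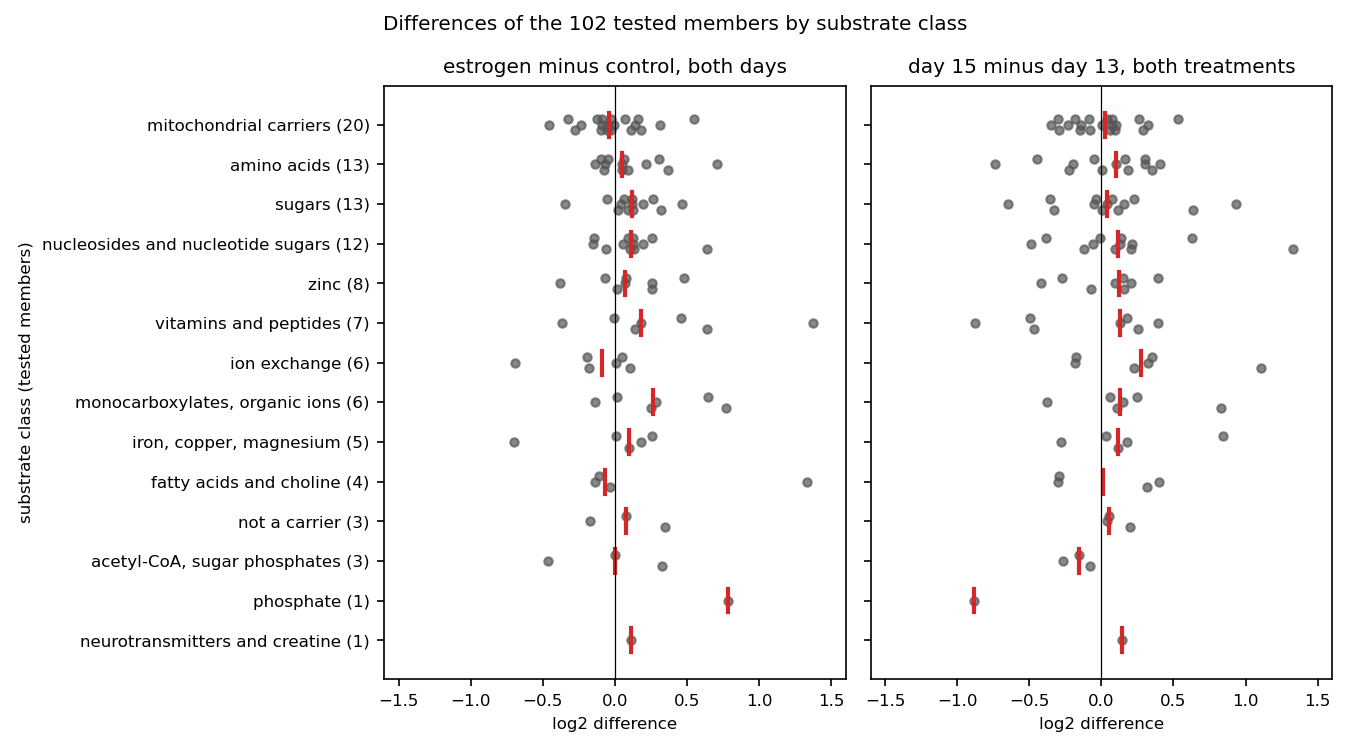
Log2 difference of the 102 tested genes by substrate class, with estrogen minus control averaged over both days (left) and day 15 minus day 13 averaged over both treatments (right); each point is a gene, red bars are class medians and numbers in brackets are tested genes. Class medians lie between -0.16 and 0.28 in classes of more than 1 gene, and no gene passed the test in either comparison.

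Across the arrays apart, 4 carriers were above the range of the other 11 arrays on all 3 (SLC4A4, SLC35A3, SLC35C1 and SLC12A4). Another 7 were below it (SLC39A2, SLC27A6, SLC5A1, SLC46A3, SLC2A12, SLC35D2 and SLC44A2). That is 10.8% of the 102 tested, beside 12.8% of all probe sets. The fatty acid carrier SLC27A6, for example, was 6.24, 5.29 and 6.19 there and 6.46 to 10.60 elsewhere. These names were taken after the values were seen.

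The 21 genes too dim to test were SLC1A2, SLC1A3, SLC1A6, SLC2A2, SLC5A5, SLC6A4, SLC6A14, SLC8A1, SLC8B1, SLC9A3, SLC10A1, SLC16A3, SLC17A1, SLC22A2, SLC22A3, SLC22A8, SLC23A2, SLC25A51, SLC26A3, SLC26A6 and SLC28A1. Their mean log2 levels lay under 6.35, so no differences are given. SLC26A6, an anion exchanger, reached 6.90 and the lactate exporter SLC16A3 6.16 on single arrays.

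Other transport genes were listed for comparison, and none passed the test with all arrays. Of 15 sodium and proton pump subunits, 12 had a positive averaged estrogen difference (median 0.13) and 6 a positive day difference (median -0.09). Among all probe sets 51.4% and 49.6% were positive. The 3 tested calcium pumps had medians of -0.01 and -0.17, the first of which turned sign under quantile normalization. The 4 aquaporins had medians of 0.23 and -0.36. Among them AQP3, a water and glycerol channel, had 1.46 for estrogen and -1.85 for day. Without the 3 arrays its day difference was -0.99 ± 0.35 (SE), and its estrogen difference is given with all arrays only. The 9 ABC transporters had -0.03 and 0.13, the 9 epithelial ion channels -0.01 and -0.05, and the 2 metallothioneins 0.91 and -0.23. The 15 partners and regulators of carriers had 0.06 and -0.15. PDZK1, a scaffold of apical carriers, differed with day by -1.40, and by -0.51 ± 0.42 (SE) without the 3 arrays. AQP3 and PDZK1 were named after their values were seen. Several of these list medians rested on the 3 arrays. Without them the metallothioneins had 0.35 and 0.04, the ion channels -0.14 and 0.03, and the aquaporins -0.01 and -0.21. The sodium and proton pumps then had a day median of 0.02, the ABC transporters 0.26 and the partners -0.27. Without the 3 arrays TAP1, the peptide pump of antigen presentation, rose with day (1.14 ± 0.21, SE; limma adjusted p = 0.0264). ARL6IP5, a regulator of glutamate carriers, fell (-0.56 ± 0.12, limma adjusted p = 0.0458). Both genes were named after their values were seen, in a fit that called 0.985% of all probe sets. With the RNA quality covariate added, that fit called 0.0239% of all probe sets, and the 2 genes were not followed there.

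Cell type markers gave, for estrogen and then day, averaged medians of 0.01 and -0.10 in 7 epithelial genes and -0.10 and 0.10 in 5 stromal genes. The first of these was within rounding of 0 and turned sign under another scaling of the arrays. They were 0.16 and 0.14 in 5 smooth muscle genes, -0.13 and 0.16 in 4 endothelial genes, and 0.24 and 1.28 in 4 macrophage genes. They were 0.07 and 0.57 in 5 lymphocyte genes, 0.04 and 0.25 in 2 red cell genes, and 0.13 and -0.10 in 5 gland and steroid receptor genes. With the 3 arrays left out the day medians were 1.78 for macrophage, 0.97 for lymphocyte, -0.03 for smooth muscle and 0.05 for gland and receptor genes, and the estrogen median of epithelial genes was 0.13. The part of these cell types in the carrier values was not tested.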

How the data were processed

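For each array the authors deposited 1 linear signal intensity for every probe set. The software behind it is not given in the sources used here. Each array had a 2% trimmed mean of 500.1, so the deposited intensities were scaled between arrays, and median signals were 177 to 217. Of 24123 probe sets, 188 controls and the dimmest 30% of the rest (mean log2 level under 6.35) were left out, leaving 16754. Symbols came from the array's annotation: 10099 probe sets had 1 symbol, 198 several (not named) and 13826 none. Of the 123 carrier genes, 121 matched RefSeq's gene table by identifier.

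The 4 group means of log2(signal + 16) were fitted in limma 3.58.1 (lmFit, eBayes with trend) under R 4.3.3, with Benjamini-Hochberg adjustment over all probe sets and a threshold of 0.05. Tables and figures used Python 3.11.15. The number of arrays limits the precision. On simulated data for day 15 minus day 13 in estrogen gilts (16754 probe sets), log2 changes of 1, 2 and 3 were called in 40.3%, 88.1% and 95.5%, with 8 false calls. The simulated noise was drawn independently for each probe set and array, so no simulated array stood apart as a whole. These rates may therefore not hold for the measured arrays.

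The carriers, comparisons and lists were chosen with earlier results of these data known. The 15 lists were 7 of transport genes and 8 of cell type markers. Named genes were the markers SLC34A2 and SLC39A2, the 6 lowest p per comparison, the 12 highest means, the 10 largest SDs and the highest mean of families with 4 or more genes: 39 genes. Others are said to be chosen after values were seen, or only describe a family or class.

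Alternatives were no filter or a 50% filter, quantile normalization, median centring, pseudocounts of 1 and 64, array weights, a fit restricted to the groups being compared, a fit with no trend, a replicate block, the mean of a gene's probe sets, and each array left out. Omitting the 3 arrays with a median correlation over 3 median absolute deviations below the median of all arrays, and an RNA quality covariate, were added after seeing the data. For the replicate block, deviations of same-numbered arrays from their group means correlated at 0.132 to 0.283 in all 4 day 13 estrogen and control pairs (other pairs -0.259 to 0.100). By this check the day 13 numbers may pair the gilts, but the correlations are low and no label says what a number stands for. The main fit used no replicate block. In the other comparisons some pairs were below 0.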

Additional observations from a re-analysis of the deposited data

Results flagged for a closer look

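In 5 groups of 4 gilts, 1 array lay far from the other 3 by Dixon's 95% criterion (0.829 for 4 samples). A total of 39 named genes in the 2 day 13 groups, 78 groups in all, were looked at. For genes chosen beforehand, chance alone flags about 1 group in 20. The genes here were partly named for their SDs and p values in these data, so that rate does not apply to them. Of the 5, 4 were on control day 13 replicate 1, which also stood apart as a whole array. There SLC34A2, the phosphate carrier, was 13.09 against 6.11 to 6.85 in the other controls. SLC39A2, the zinc carrier, was 10.33 against 13.61 to 14.21. SLC28A3, the nucleoside carrier, was 10.52 against 12.53 to 12.94, and SLC38A10 was 9.83 against 9.10 to 9.16. On control day 13 replicate 3, SLC29A1, the equilibrative nucleoside carrier, was 4.86 against 6.14 to 6.30. Estrogen day 13 replicate 3 had a like value for SLC29A1 (4.85).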

How the results depend on the processing

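The count of carriers called was 0 in all 7 comparisons with all 14 arrays, and 0 with the replicate block in each. It changed in 2 comparisons. For day 15 minus day 13 in estrogen gilts it was 2 with array weights (1.00% of all probe sets) and 1 without the 3 arrays that stood apart (1.32%). For the day difference averaged over treatments it was 1 with array weights (0.710%) and 2 without the 3 arrays (0.985%), and 0 to 1 with each array left out, the 1 being without control day 13 replicate 1 (0.603%). With 102 carriers, these counts of 1 or 2 are near the shares over all probe sets. No carrier was called with the RNA quality covariate, with or without the 3 arrays. Of 57 named differences, 42 kept their sign under every alternative run (at most 28) and 15 turned under at least 1. Leaving out 1 array at a time, SLC34A2 ranged from -2.19 to 0.14 for day in control gilts, -1.48 to 0.59 for day in estrogen gilts, -0.38 to 2.11 for the interaction and -0.52 to 1.81 for estrogen at day 13. Without the 3 arrays, SLC34A2 was 0.22 for day in control gilts (0.23 with the covariate too) and -1.70 for the interaction (-2.24 with the covariate, -0.63 with array weights). For SLC34A2 the covariate alone gave 0.62 for day in estrogen gilts and -0.10 for estrogen at day 13, a pseudocount of 64 gave -0.11 for the latter, and both added changes together gave -0.35 for estrogen at day 15. Leaving out 1 array at a time, SLC39A2 ranged from -0.86 to 0.29 for averaged day, -1.55 to 0.74 for day in control gilts, -0.67 to 0.57 for day in estrogen gilts, -0.91 to 1.39 for the interaction, -0.65 to 0.64 and -0.68 to 1.47 for estrogen at days 13 and 15, and -0.23 to 0.85 for averaged estrogen. Without the 3 arrays, SLC39A2 was 0.21 for averaged day, 0.57 for day in estrogen gilts, -0.65 for estrogen at day 13 and -0.30 for averaged estrogen, and with the covariate too 0.49, 1.13, -0.74 and -0.10. Array weights gave SLC39A2 0.21 for day in estrogen gilts, -0.39 for estrogen at day 13 and -0.16 averaged. The covariate alone gave SLC39A2 -1.18 for the interaction, -0.61 for estrogen at day 15 and -0.022 averaged. Without the 3 arrays and with the covariate, SLC9A4 was 1.19 for the interaction and 1.34 for estrogen at day 15, and SLCO3A1 was -0.41 for estrogen at day 15. The cause of these reversals was not tested, beyond the arrays left out. In the simulation of day 15 minus day 13 in estrogen gilts, differences of 1 log2 unit were called in 40.3% of cases. Smaller differences, other comparisons and arrays that stand apart were not simulated.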
